A study of Mus musculus with 80 samples.

Results

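Amino acid carriers move amino acids across the plasma membrane and out of lysosomes, and in mouse most of them belong to 7 solute carrier families. The genes described here are the 63 of the 20105 listed genes whose symbol begins with Slc followed by family number 1, 3, 6, 7, 36, 38 or 43, the letter a and a member number. The rule uses names alone, so it also takes in 2 opposite-strand genes, Slc6a19os and Slc7a6os, and carriers of other substrates. Among the latter are the nucleobase carrier Slc43a3, the serotonin carrier Slc6a4 and the creatine carrier Slc6a8. Counts of carriers below include such genes where tested. Of the 63, 36 had enough reads for a test in hepatocyte nuclei, 38 in macrophage nuclei, 35 in both and 24 in neither. These 24 had between 0 and 154 reads summed over all 64 libraries of tagged nuclei, and the intestinal and renal carrier Slc6a19 was among them.

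During a fast the liver takes up amino acids released by other tissues and uses their carbon for glucose, while their nitrogen enters the urea cycle. Sodium-coupled carriers of families 1, 6 and 38 drive uptake against a gradient. System A (Slc38a2 and Slc38a4) is the classical uptake route that hormones and amino acid supply regulate in liver. Family 7 holds cationic carriers and the light chains that need a heavy chain of family 3 to reach the membrane. Family 36 and Slc38a9 act at the lysosome, where amino acids are sensed, and Slc43a1 and Slc43a2 let branched-chain and other large neutral amino acids cross by facilitated diffusion.

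The study used female mice of 2 lines, HEP-INTACT and MAC-INTACT, in which nuclei of hepatocytes or of macrophages carry a tag for purification (INTACT). The sources used here do not give the promoter that drives each tag. Within each line, mice were fasted from zeitgeber time 12 for 3, 8, 16 or 24 h or fed ad libitum until the same time, which gives 8 groups of 4 libraries of tagged nuclei per cell type. A further 16 libraries held unpurified liver nuclei, 1 pool of 4 mice per line and condition. The labels do not say whether each library of tagged nuclei came from its own animal. The p-values therefore reflect only how these libraries vary, which may be technical in part.

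Total counts per library were 12597786 to 30089561 for hepatocyte-tagged nuclei (32 libraries), 14968505 to 44694933 for macrophage-tagged nuclei (32 libraries) and 13246494 to 35514304 for the 16 pools. Hepatocyte-tagged nuclei had 18 of 18 sinusoidal endothelial and 20 of 24 Kupffer cell and macrophage markers below the pools (medians -2.53 and -2.11 on the log2 scale). Their 23 hepatocyte markers differed little from the pools (median 0.24, range -0.15 to 0.45). The 7 measured cholangiocyte markers were less depleted (median -0.45, range -1.10 to 0.24). In macrophage-tagged nuclei all 25 measured Kupffer cell and macrophage markers were above the pools (median 3.65), and all 23 hepatocyte markers were below them but still read, with log2 differences of -1.45 to -1.02. The summed level of those 23 markers also moved with feeding in macrophage-tagged libraries, from 5662 to 8343 CPM (counts scaled to the library total) in fed to 10374 to 12365 CPM in fasted libraries at 8 h. One library stood apart, fasted macrophage replicate 3 at 3 h. Its mean correlation with its group was 0.942, against at least 0.970 in the other tagged libraries. It also had the highest hepatocyte marker sum of the macrophage-tagged libraries, 24296 CPM. Hepatocyte and macrophage libraries come from separate runs of library numbers, so cell type and library series cannot be told apart in a comparison of levels. In such bulk libraries, fewer nuclei of a type and less RNA per nucleus cannot be told apart either.

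Carriers took 0.541% of all counts in fed hepatocyte nuclei and 0.411% in fed macrophage nuclei. Levels of different genes are given per kb of the gene body (exons and introns, as listed), on a CPM scale common to all libraries, as mean ± SD over 16 fed libraries. In hepatocyte nuclei the order was led by the glutamine carrier Slc38a3 at 75.9 ± 41.1 CPM per kb. The cationic carrier Slc7a2, which takes up arginine, lysine and ornithine, followed at 29.8 ± 15.03 and the system A carrier Slc38a4 at 14.8 ± 7.46. Next came Slc38a2 at 8.69 ± 4.12 and the GABA and taurine carrier Slc6a13 at 7.98 ± 1.21, which do not differ beyond their spread. Of all carrier counts in fed hepatocyte nuclei, Slc7a2 took 30.7%, Slc38a3 24.0% and Slc38a4 16.0%. In macrophage nuclei Slc38a3 and Slc7a2 also came first, at 26.7 ± 16.6 and 14.6 ± 7.44 CPM per kb. The exchanger light chain Slc7a8 (5.43 ± 1.55), Slc38a4 (5.31 ± 1.95), the facilitative carrier Slc43a2 (5.29 ± 0.842) and the taurine carrier Slc6a6 (4.81 ± 0.535) followed within their spread. Against unpurified liver, Slc38a3, Slc7a2 and Slc38a4 were lower in macrophage-tagged nuclei (log2 -1.17, -1.22 and -1.24), within the range of the hepatocyte markers. Slc7a8, Slc43a2 and Slc6a6 were higher (4.21, 2.62 and 0.61). What part of the macrophage-tagged reads of Slc38a3, Slc7a2 and Slc38a4 came from hepatocyte RNA was not tested.

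In macrophage-tagged nuclei 18 of 36 tested carriers were higher and 15 lower than in the 8 pools of the same line (edgeR adjusted p under 0.05). Of all genes tested 77.3% were called, 37.2% higher and 40% lower. The glutamate carrier Slc1a3 had a lowest, median and highest level of 31.7, 52.9 and 101 CPM in 32 tagged libraries and 1.91, 3.09 and 4.64 CPM in the pools. Its log2 difference was 4.22 ± 0.16 (adjusted p = 2.89e-23). The light chain Slc7a8, which exchanges large neutral amino acids, stood at 142, 261 and 501 CPM against 8.62, 14.8 and 23.9 CPM, a log2 difference of 4.21 ± 0.12 (adjusted p = 1.32e-26). For the glutamine carrier Slc38a1 the levels were 48.7, 73.7 and 98.7 CPM against 5.004, 6.09 and 7.84 CPM, a log2 difference of 3.58 ± 0.11 (adjusted p = 3.65e-25). In none of these 3 did a tagged library overlap with a pool.

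The heavy chain Slc3a2 and 3 of its light chains were enriched in macrophage nuclei, while the light chain Slc7a5 was lower (-0.81 ± 0.15). Slc7a7, the light chain that exchanges cationic for neutral amino acids, differed by 2.80 ± 0.09, its relative Slc7a6 by 1.62 ± 0.11 and the heavy chain Slc3a2, which pairs with Slc7a5, Slc7a6, Slc7a7 and Slc7a8, by 1.45 ± 0.10. The branched-chain amino acid carrier Slc43a2 differed by 2.62 ± 0.12, Slc38a6 by 1.69 ± 0.09 and the cationic carrier Slc7a1 by 1.17 ± 0.12. Lysosomal carriers were enriched by less, Slc36a1 by 0.79 ± 0.12 and the arginine sensor Slc38a9 by 0.38 ± 0.06. The cationic carrier Slc7a3 was called as well (3.04 ± 0.29), at under 1 CPM on average in tagged nuclei. The largest adjusted p of these enriched genes was that of Slc38a9, 3.24e-07, and that of Slc7a5 was 1.18e-05.

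The 15 carriers that were lower in macrophage-tagged nuclei had log2 differences of -1.34 to -0.71 (median -1.17), and 12 of the 15 lay within the range of the hepatocyte markers, -1.45 to -1.02. The 3 lowest by this measure at 1 CPM or more were Slc43a1, Slc38a4 and Slc7a2. The branched-chain amino acid carrier Slc43a1 had a lowest, median and highest level of 0.968, 4.19 and 7.99 CPM in tagged and 4.73, 11.6 and 18.3 CPM in unpurified nuclei (-1.34 ± 0.19, adjusted p = 5.04e-08). Slc38a4 stood at 175, 458 and 1032 CPM against 579, 1012 and 1574 CPM (-1.24 ± 0.13, adjusted p = 6.55e-11) and Slc7a2 at 369, 1194 and 3967 CPM against 1225, 3112 and 5809.5 CPM (-1.22 ± 0.15, adjusted p = 3.59e-09). Tagged libraries and pools overlapped in all 3 genes when taken over all conditions. The glutamate carrier Slc1a2 (-1.07 ± 0.08), Slc38a3 (-1.17 ± 0.14), the heavy chain Slc3a1 (-1.22 ± 0.16) and the glycine carrier Slc6a9 (-1.16 ± 0.21) lay in the same range. What part of the reads of these genes in macrophage-tagged libraries came from hepatocyte RNA was not tested.

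**Figure D1:**
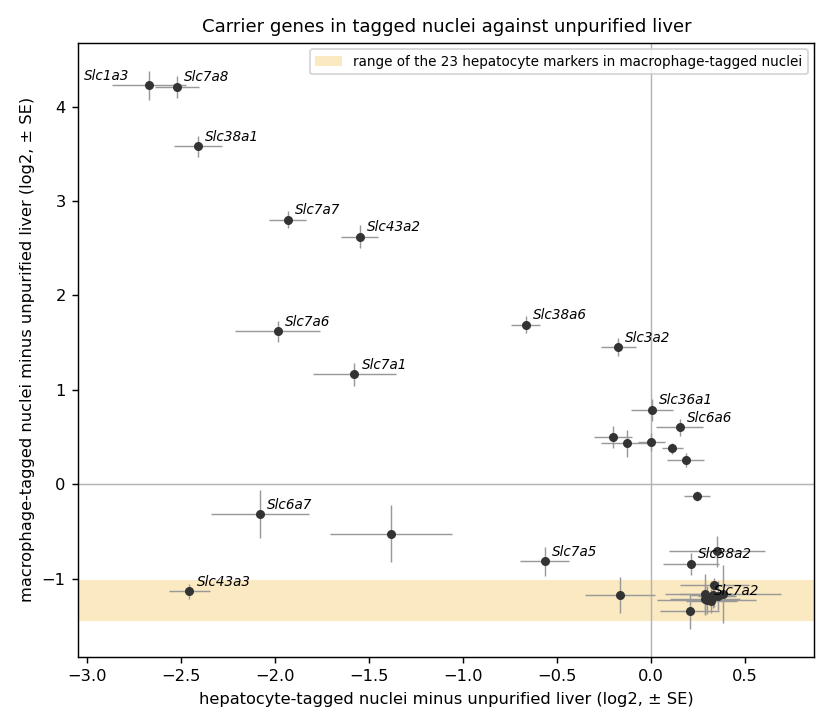
Log2 difference between tagged nuclei and unpurified liver for each carrier gene tested in both lines, hepatocyte line on the x axis and macrophage line on the y axis (points with bars of ± SE). Slc1a3, Slc7a8, Slc38a1, Slc7a7 and Slc43a2 sit at the upper left, low in hepatocyte and high in macrophage nuclei, and a cluster of carriers at the lower right lies within the shaded range of the 23 hepatocyte markers, -1.45 to -1.02.

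In hepatocyte-tagged nuclei 6 of 35 carriers were higher and 12 lower than in the pools, beside 28.9% and 20.5% of all genes tested (49.5% called). The same macrophage-enriched genes were among the lowest. Slc1a3 differed by -2.67 ± 0.20, with 0, 0.443 and 1.03 CPM as lowest, median and highest tagged level and 2.12, 2.77 and 3.89 CPM in the pools (adjusted p = 1.71e-14). Slc7a8 stood at 0.792, 2.46 and 3.80 CPM against 9.81, 14.3 and 18.0 CPM in the pools (-2.53 ± 0.12, adjusted p = 1.57e-20). The nucleobase carrier Slc43a3, which was lower in macrophage nuclei as well (-1.13 ± 0.08), stood at 3.62, 8.04 and 13.4 CPM against 31.8, 47.1 and 62.1 CPM (-2.46 ± 0.11, adjusted p = 5.6e-21). No tagged library overlapped with a pool in these 3 genes. Differences upward were small, and tagged and unpurified ranges overlapped. The low carrier Slc6a20b led with 0.63 ± 0.22, at 0.258, 0.718 and 3.35 CPM against 0.247, 0.497 and 0.825 CPM (adjusted p = 0.0161). Slc6a13 stood at 146, 284 and 382 CPM against 188, 219 and 271 CPM (0.36 ± 0.09, adjusted p = 0.00229). Next were the betaine and GABA carrier Slc6a12 (0.33 ± 0.08) and Slc38a3 (0.33 ± 0.11), with adjusted p of at most 0.0156. Slc38a4, at 0.32 ± 0.14 (adjusted p = 0.0479), had an adjusted p of 0.0786 with RLE scaling, 0.0746 without a filter on low counts and 0.062 with DESeq2.

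Fasting changed 15 of 36 carriers in hepatocyte nuclei at 3 h, 7 upward and 8 downward, beside 39.9% of all genes tested (19.5% higher, 20.4% lower). The carriers' share, 41.7%, is near that background. At 8 h 12 were called (5 higher, 7 lower), beside 38.7% of all genes (18% higher, 20.7% lower). At 16 h it was 6 (3 and 3, or 3 in all without fasted replicate 3), beside 18.1% (9.55% and 8.55%). At 24 h it was 9 (4 and 5), beside 24% (11.6% and 12.4%). The median log2 fold change over the carriers tested was -0.24 at 3 h, 0.04 at 8 h, -0.07 at 16 h and 0.15 at 24 h, beside -0.03, -0.02, 0.01 and -0.01 for all genes. Fed and fasted libraries did not overlap for 16, 12, 5 and 12 carriers at the 4 times, beside 40.9%, 37.1%, 15.8% and 25.3% of all genes tested. By family at 3 h, 2 of 9 sodium-coupled neutral carriers (family 38) rose and 1 fell. Of 8 tested genes named for family 7, 2 rose, Slc7a2 and the opposite-strand gene Slc7a6os, and 2 fell. Of 8 tested members of family 6, 1 rose and 3 fell, and of 4 members of family 1, 1 rose and 1 fell. Over the 4 times, 24 of 36 carriers were called at least once in hepatocyte nuclei, beside 65.6% of all genes tested, and 20 of 38 in macrophage nuclei, beside 33.5%. Of the 35 tested in both, 13 were called in both, beside 27.2% of all genes tested in both. Of the 39 tested in either, 8 were called at no time, among them the cystine and glutamate exchanger Slc7a11, Slc43a1, Slc7a3 and Slc7a6.

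**Figure D2:**
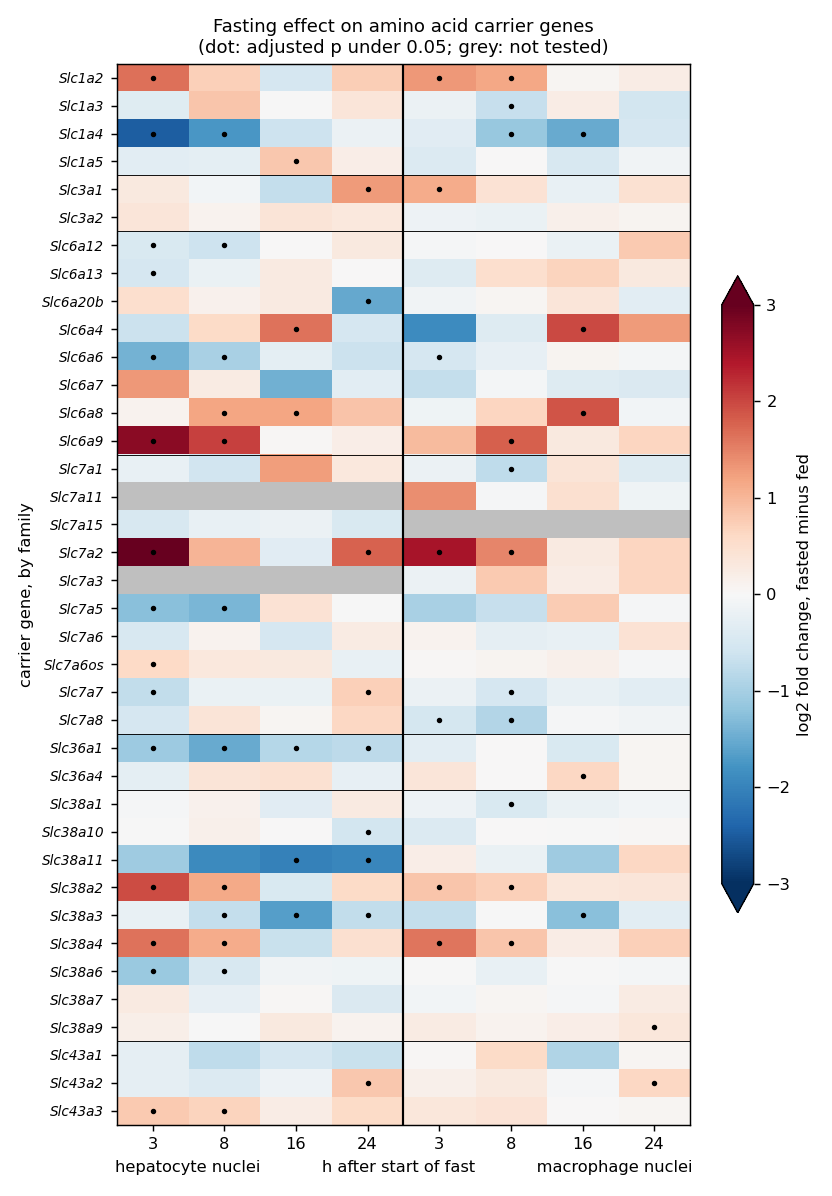
Log2 fold change of fasted over fed libraries (colour scale, -3 to 3) for 38 of the 39 carriers tested in either cell type, by time after the start of the fast, with hepatocyte nuclei on the left and macrophage nuclei on the right. Dots mark an edgeR adjusted p under 0.05 and grey marks genes not tested. Slc7a2, Slc6a9, Slc38a2 and Slc38a4 are red and Slc1a4, Slc36a1 and Slc7a5 blue at 3 h in hepatocyte nuclei, and few dots remain at 16 h.

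The largest early rises among called carriers in hepatocyte nuclei were those of Slc7a2, Slc6a9 and Slc38a2. Slc7a2 (chr8:40862366-40922070, plus strand, mm10) was at 545, 597, 779 and 1584 CPM in the 4 fed libraries and 4514, 5718, 9009 and 9534 CPM in the 4 fasted libraries at 3 h. All fasted libraries were above all fed ones, with a log2 fold change of 3.04 ± 0.55 (SE, adjusted p = 7.25e-05). Of the system A carriers, Slc38a2 (chr15:96687391-96699698, minus strand) was at 55.7, 56.9, 62.1 and 63.8 CPM fed and 166, 200.4, 274 and 279.6 CPM fasted. Its log2 fold change was 1.95 ± 0.30 (adjusted p = 1.01e-05). Its neighbour on chromosome 15, Slc38a4 (chr15:96994822-97055956, minus strand), was at 429.8, 459.9, 573 and 738 CPM fed and 1209.7, 1417, 1926 and 2214 CPM fasted. Its log2 fold change was 1.62 ± 0.27 (adjusted p = 3.12e-05). In both genes each fasted library exceeded each fed one.

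The glycine carrier Slc6a9 (chr4:117835257-117869305, plus strand) rose from 12.2, 16.1, 17.2 and 18.2 CPM in fed to 70.3, 100.0, 112 and 136 CPM in fasted libraries, with no overlap (2.72 ± 0.27, adjusted p = 1.67e-08). It overlaps Ccdc24 on the other strand and, in the GENCODE gene models, also B4galt2, and both had too few reads for a test in hepatocyte nuclei. The glutamate carrier Slc1a2 (chr2:102658682-102790784, plus strand) was at 208, 242, 246 and 300.2 CPM fed and 506, 810.1, 901 and 927 CPM fasted, again without overlap (1.66 ± 0.37, adjusted p = 0.000684). Smaller rises were those of the nucleobase carrier Slc43a3 (0.80 ± 0.26, adjusted p = 0.016) and of the opposite-strand gene Slc7a6os (0.59 ± 0.13, adjusted p = 0.000627). The call of Slc43a3 was lost in 2 of 8 fits with 1 library left out (fed replicate 3 or fasted replicate 1; adjusted p up to 0.0577). In these 8 libraries the summed hepatocyte markers were also higher after fasting, 24033 to 33255 CPM against 16765 to 20569 CPM in fed libraries, and the part this plays in the rises was not tested.

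Other carriers fell at the same time. The alanine, serine and cysteine carrier Slc1a4 (chr11:20302179-20332713, minus strand) was at 9.42, 9.88, 12.2 and 12.7 CPM in fed and 1.18, 1.98, 2.30 and 2.48 CPM in fasted libraries. Its log2 fold change was -2.46 ± 0.51 (adjusted p = 0.000319). The taurine carrier Slc6a6 (chr6:91684066-91759063, plus strand) went from 265, 323, 335 and 354 to 74.7, 85.2, 133 and 182 CPM (-1.43 ± 0.25, adjusted p = 4.34e-05). Slc7a5, the leucine-exchanging light chain of system L, went from 4.22, 4.60, 4.64 and 5.20 to 1.33, 1.60, 2.09 and 2.77 CPM (-1.25 ± 0.25, adjusted p = 0.000218). Fed and fasted libraries did not overlap for any of the 3.

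Slc38a6 (chr12:73286847-73354045, plus strand) had the smallest adjusted p of the falling carriers, 3.93e-07, at 48.4, 53.2, 60.9 and 61.0 CPM fed and 22.5, 23.4, 26.1 and 30.9 CPM fasted (-1.12 ± 0.14). The lysosomal proton-coupled carrier Slc36a1 (chr11:55204339-55236330, plus strand) was at 42.3, 47.3, 51.7 and 54.3 CPM fed and 17.0, 18.4, 26.2 and 30.7 CPM fasted (-1.09 ± 0.21, adjusted p = 0.000196). Slc7a7, which is low in hepatocyte nuclei, was at 7.69, 8.12, 8.80 and 10.1 CPM fed and 3.12, 4.24, 6.06 and 7.10 CPM fasted (-0.75 ± 0.22, adjusted p = 0.00681). It overlaps Oxa1l on the other strand, which had a log2 fold change of 0.09 ± 0.13 (adjusted p = 0.616), and the summed Kupffer cell and macrophage markers were at 483 to 534 CPM in fed and 587 to 661 CPM in fasted hepatocyte-tagged libraries. The GABA and betaine carriers had smaller log2 fold changes, Slc6a13 -0.50 ± 0.18 (adjusted p = 0.031) and Slc6a12 -0.46 ± 0.16 (adjusted p = 0.024). The Slc6a13 call was lost in 6 of 8 fits with 1 library left out (fed replicates 1, 2 and 3 or fasted replicates 1, 3 and 4; adjusted p up to 0.138). That of Slc6a12 was lost in 4 of 8 fits with 1 library left out (fed replicates 1 and 3 or fasted replicates 2 and 4; adjusted p up to 0.119).

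Promoter windows are shown for the 3 lowest and the 3 highest log2 fold changes at 3 h among called carriers that have a window at the listed start, so that genes that moved in opposite directions in one cell type can be compared. RefSeq (GRCm38.p6) gave a window from 250 bases before to 50 bases after a start for 45 of the 63 genes, and for 38 of them within 50 bases of the listed gene start. Each window was searched on both strands for TGATGNAA (the core bound by ATF4 with C/EBP), TGACGTCA (the cAMP response element), GTAAACA (forkhead factors), the inverted repeat of the glucocorticoid receptor and CACGTG (the E-box bound by clock and TFE factors). Capitals mark the matches, none of which overlap here. Positions of the windows are chr11:20332664-20332963 (minus strand), chr11:55204090-55204389 (plus), chr12:73286598-73286897 (plus), chr4:117835008-117835307 (plus), chr15:96699679-96699978 (minus) and chr15:97055907-97056206 (minus), and each is written 5′ to 3′ on the gene's strand:
Slc1a4: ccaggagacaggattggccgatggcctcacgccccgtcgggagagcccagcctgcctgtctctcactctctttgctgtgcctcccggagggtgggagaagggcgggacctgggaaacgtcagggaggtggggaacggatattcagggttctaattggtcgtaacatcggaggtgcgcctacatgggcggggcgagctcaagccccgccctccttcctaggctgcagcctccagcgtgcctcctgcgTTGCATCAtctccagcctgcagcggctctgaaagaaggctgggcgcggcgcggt
Slc36a1: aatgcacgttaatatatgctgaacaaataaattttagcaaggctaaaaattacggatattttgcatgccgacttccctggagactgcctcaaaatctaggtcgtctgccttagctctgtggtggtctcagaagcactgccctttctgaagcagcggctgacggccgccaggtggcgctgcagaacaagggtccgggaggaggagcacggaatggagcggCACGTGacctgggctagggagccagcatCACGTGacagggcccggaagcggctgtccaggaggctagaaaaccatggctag
Slc38a6: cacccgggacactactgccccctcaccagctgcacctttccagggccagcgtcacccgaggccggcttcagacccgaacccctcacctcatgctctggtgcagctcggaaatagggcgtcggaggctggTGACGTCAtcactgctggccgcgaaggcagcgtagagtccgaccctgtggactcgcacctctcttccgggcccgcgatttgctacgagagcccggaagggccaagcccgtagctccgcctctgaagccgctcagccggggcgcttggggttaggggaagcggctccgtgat
Slc6a9: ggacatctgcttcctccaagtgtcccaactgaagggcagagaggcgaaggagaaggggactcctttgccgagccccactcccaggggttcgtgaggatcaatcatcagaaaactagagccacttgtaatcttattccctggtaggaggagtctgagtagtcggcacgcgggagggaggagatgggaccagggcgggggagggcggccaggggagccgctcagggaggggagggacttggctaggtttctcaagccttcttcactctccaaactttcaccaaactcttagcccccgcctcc
Slc38a2: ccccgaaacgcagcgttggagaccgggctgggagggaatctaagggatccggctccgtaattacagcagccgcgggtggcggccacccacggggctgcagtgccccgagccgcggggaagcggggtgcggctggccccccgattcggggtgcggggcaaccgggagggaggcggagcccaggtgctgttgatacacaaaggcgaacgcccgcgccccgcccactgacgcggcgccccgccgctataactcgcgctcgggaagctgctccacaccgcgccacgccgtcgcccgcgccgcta
Slc38a4: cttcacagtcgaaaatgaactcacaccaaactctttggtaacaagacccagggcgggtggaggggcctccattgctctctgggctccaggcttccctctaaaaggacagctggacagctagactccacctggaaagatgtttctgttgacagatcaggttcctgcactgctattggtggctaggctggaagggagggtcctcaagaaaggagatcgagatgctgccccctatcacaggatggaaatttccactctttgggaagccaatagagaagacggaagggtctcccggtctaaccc

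Slc1a4 holds TTGCATCA, the reverse complement of a TGATGNAA match, with its first base 4 bases before the start. Slc36a1 holds CACGTG at 31 and again at 3 bases before the start, and Slc38a6 holds TGACGTCA at 121 bases before it. The windows of Slc6a9, Slc38a2 and Slc38a4 hold none of the 5 motifs. Of the other called carriers with a window, Slc7a7, which fell, holds TGATGCAA in 1 of its 2 windows at the listed start, and neither Slc6a13, which fell, nor Slc7a6os, which rose, holds a match. Without such a window were Slc6a6, Slc7a5 and Slc6a12 of the 8 that fell and Slc43a3, Slc1a2 and Slc7a2 of the 7 that rose. Of the 38 carriers with a window, 12 hold at least 1 of the motifs. The share of all windows that hold at least 1 of the 5 motifs was not computed, so this count has no background. Of all 32851 windows, 3.97% hold TGATGNAA, 1.79% TGACGTCA, 3.65% GTAAACA, 0.475% the glucocorticoid receptor repeat and 7.15% CACGTG. Of the 38 carriers, 3, 1, 2, 1 and 6 do in at least 1 window at the listed start. The carriers are counted by gene and the shares by window, so the 2 are not in the same unit. Such matches are letters found in a window and say nothing of binding.

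At 8 h the rises were carried by some libraries more than by others. Slc6a9 was at 15.9, 22.2, 22.3 and 24.5 CPM fed and 75.7, 87.8, 89.1 and 101 CPM fasted, and all 4 fasted libraries lay close together (2.06 ± 0.26, adjusted p = 6.78e-07). Slc7a2, by contrast, was at 559, 3479, 1025 and 6616 CPM in fasted replicates 1 to 4, against 1049.8, 1083, 1705 and 1882 CPM in fed libraries (1.03 ± 0.51, adjusted p = 0.113, not called). Slc38a4 showed the same pair of high libraries, 610, 1048, 680 and 1797 CPM in fasted replicates 1 to 4 against 413, 472, 494 and 532 CPM fed (1.11 ± 0.27, adjusted p = 0.00173). Slc38a2 was at 74.8, 173, 150 and 240 CPM in those replicates and 62.0, 66.2, 73.6 and 86.1 CPM in fed libraries, with 1 fasted library inside the fed range (1.15 ± 0.29, adjusted p = 0.00282). Slc1a2, at 211, 612, 235 and 779 CPM in the same order and 208, 223, 289 and 399 CPM in fed libraries, was not called (0.72 ± 0.36, adjusted p = 0.118). In Slc7a2 and Slc1a2, fasted replicates 2 and 4 lay above all fed libraries and replicates 1 and 3 within or below the fed range. The summed hepatocyte markers of the 4 fasted libraries ranged from 16231 to 35169.5 CPM, against 17016 to 20636 CPM fed, and their part in this spread was not tested.

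The falls held in all 4 fasted libraries at 8 h, although the same pair stood lowest in several genes. Slc1a4 was at 8.56, 9.57, 12.9 and 14.1 CPM fed and 1.38, 2.03, 4.38 and 5.26 CPM fasted (-1.75 ± 0.48, adjusted p = 0.0049). Slc36a1 fell from 47.4, 49.7, 50.6 and 56.3 to 14.005, 15.1, 20.9 and 21.7 CPM (-1.50 ± 0.22, adjusted p = 3.77e-06). Slc7a5 went from 3.34, 4.54, 4.88 and 4.96 to 1.21, 1.44, 1.59 and 2.47 CPM (-1.36 ± 0.25, adjusted p = 0.000102). Slc6a6 (-0.98 ± 0.25), the glutamine carrier Slc38a3 (-0.71 ± 0.20), Slc6a12 (-0.63 ± 0.16) and Slc38a6 (-0.47 ± 0.14) fell by less, with adjusted p of at most 0.00681 and no overlap. The creatine carrier Slc6a8 rose, from 0.891, 1.42, 1.65 and 1.78 to 2.10, 2.47, 3.68 and 4.76 CPM (1.19 ± 0.37, adjusted p = 0.0127), and Slc43a3 rose with overlapping groups (0.66 ± 0.26, adjusted p = 0.0469). The call of Slc6a8 was lost in 1 of 8 fits with 1 library left out (fasted replicate 3; adjusted p up to 0.0599). The call of Slc43a3 was lost in 6 of 8 fits with 1 library left out (fed replicates 2, 3 and 4 or fasted replicates 2, 3 and 4; adjusted p up to 0.144) and in a fit to these 8 libraries alone (adjusted p = 0.0503).

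**Figure D3:**
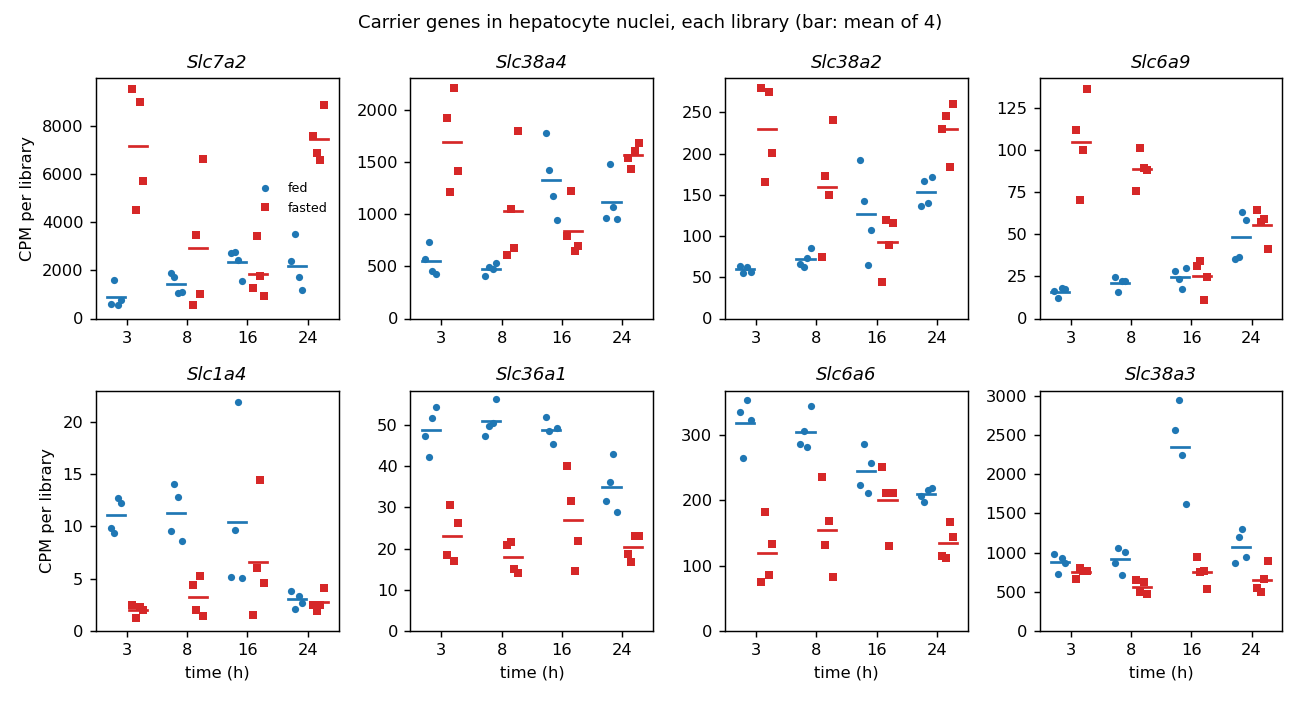
CPM in each hepatocyte library (y axis, linear, from 0) by time after the start of the fast (x axis) for 4 carriers with early rises (top row) and 4 that fell (bottom row), with fed libraries as blue circles, fasted libraries as red squares and bars for the mean of 4. Slc7a2 fasted libraries lie between 4514 and 9534 CPM at 3 h, spread from 559 to 6616 CPM at 8 h and overlap with fed libraries at 16 h, while fed Slc38a3 stands highest at 16 h.

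At 16 h Slc7a2, both system A carriers and Slc6a9 were not called. Slc7a2 had a log2 fold change of -0.35 ± 0.51, Slc38a4 of -0.66 ± 0.27, Slc38a2 of -0.45 ± 0.29 and Slc6a9 of 0.03 ± 0.25 (adjusted p at least 0.0865). The largest change at 1 CPM or more was the fall of the glutamine carrier Slc38a3 (chr9:107651154-107668968, minus strand), from 1615, 2253, 2564 and 2945 CPM fed to 529, 758, 766 and 945 CPM fasted, with no overlap (-1.65 ± 0.20, adjusted p = 1.45e-06). Slc36a1 was still low, at 14.6, 21.8, 31.5 and 40.1 CPM against 45.5, 48.5, 49.4 and 52.0 CPM fed (-0.86 ± 0.21, adjusted p = 0.00534), although a fit to these 8 libraries alone gave an adjusted p of 0.0797.

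The neutral amino acid exchanger Slc1a5 rose at 16 h from 1.75, 2.27, 2.99 and 3.01 to 3.01, 3.59, 5.33 and 5.42 CPM (0.81 ± 0.26, adjusted p = 0.0317), with its groups just apart. Slc6a8 rose from 0.805, 1.61, 1.79 and 2.58 to 2.02, 3.20, 3.42 and 6.49 CPM with overlap (1.17 ± 0.36, adjusted p = 0.0236). The serotonin carrier Slc6a4 rose from 0, 0.598, 0.673 and 0.9001 to 0.961, 0.969, 1.76 and 3.37 CPM (1.64 ± 0.56, adjusted p = 0.0418). Each of these 3 calls was lost with libraries left out. For Slc1a5 that was 4 of 8 fits with 1 library left out (fed replicates 1 and 4 or fasted replicates 3 and 4; adjusted p up to 0.119). For Slc6a8 it was 3 of 8 fits with 1 library left out (fed replicates 1 and 2 or fasted replicate 3; adjusted p up to 0.181), and for Slc6a4 5 of 8 fits with 1 library left out (fed replicates 2, 3 and 4 or fasted replicates 1 and 3; adjusted p up to 0.171). A fit to these 8 libraries alone gave adjusted p of 0.106, 0.12 and 0.165 for the 3 genes, and without a filter on low counts Slc6a4 had 0.0513. Slc38a11, under 1 CPM in every group mean, was called lower at 16 h (-2.02 ± 0.61) and at 24 h (-1.97 ± 0.69), with calls lost in 2 of 7 fits with 1 library left out (fasted replicates 3 and 4; adjusted p up to 0.0656) and 4 of 7 fits with 1 library left out (fed replicate 1 or fasted replicates 1, 2 and 3; adjusted p up to 0.106). In the eighth fit at each time it had too few reads for a test, and at 24 h without a filter its adjusted p was 0.0514.

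By 24 h Slc7a2 was high again, at 6580.1, 6887, 7607 and 8864 CPM in fasted and 1191, 1725, 2371 and 3496 CPM in fed libraries, with no overlap (1.77 ± 0.52, adjusted p = 0.0145). The heavy chain Slc3a1 (chr17:85028346-85064241, plus strand), which pairs with the cystine and cationic amino acid light chain Slc7a9, rose from 39.8, 43.1, 48.7 and 59.5 to 73.3, 101, 116 and 176 CPM (1.29 ± 0.36, adjusted p = 0.0107). Slc7a9 itself had too few reads for a test. Slc3a1 overlaps Prepl on the other strand, which had a log2 fold change of 0.14 ± 0.10 at that time (adjusted p = 0.351). Slc43a2 rose from 13.3, 13.7, 14.4 and 17.8 to 18.7, 26.1, 26.9 and 32.4 CPM (0.81 ± 0.20, adjusted p = 0.00472). Slc7a7 (chr14:54369441-54417702, minus strand) rose from 3.59, 4.75, 5.18 and 6.31 to 6.83, 7.06, 9.42 and 9.78 CPM (0.72 ± 0.22, adjusted p = 0.0158), the opposite sign to its change at 3 h. It overlaps Oxa1l, which had a log2 fold change of 0.21 ± 0.13 (adjusted p = 0.251). Summed Kupffer cell and macrophage markers were at 438 to 601 CPM in fed and 491 to 549.6 CPM in fasted hepatocyte-tagged libraries at 24 h, and hepatocyte markers at 20443 to 31480.4 and 26185 to 34521 CPM. The Slc3a1 call was lost in 1 of 8 fits with 1 library left out (fasted replicate 4; adjusted p up to 0.0542). That of Slc7a7 was lost in 2 of 8 fits with 1 library left out (fed replicate 2 or fasted replicate 2; adjusted p up to 0.0748).

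Falling at 24 h were Slc36a1, from 29.0, 31.5, 36.3 and 43.05 to 16.8, 18.6, 22.97 and 23.04 CPM (-0.78 ± 0.21, adjusted p = 0.00885), Slc38a3, from 862, 938, 1203 and 1300.2 to 498, 553, 658 and 889.7 CPM with overlap (-0.73 ± 0.20, adjusted p = 0.00789) and Slc38a10 (-0.56 ± 0.14, adjusted p = 0.00329). Slc6a20b, a low gene, went from 0.763, 1.22, 1.34 and 3.26 to 0.253, 0.509, 0.621 and 0.755 CPM (-1.55 ± 0.38, adjusted p = 0.00386). Slc36a1 was the only carrier called in the same direction at all 4 times in hepatocyte nuclei. Slc3a2, the heavy chain shared by the exchanger light chains, was called at no time in either cell type, with hepatocyte log2 fold changes of 0.36 ± 0.18, 0.10 ± 0.18, 0.39 ± 0.18 and 0.32 ± 0.18 at the 4 times (adjusted p at least 0.103).

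A test of the difference between times called 18 of 36 carriers in hepatocyte nuclei, beside 32.8% of all genes tested. Slc6a9 had the smallest adjusted p among those named above (3.17e-06), followed by Slc7a5 (0.000259), Slc38a4 (0.0003), Slc38a6 (0.000556), Slc38a2 (0.00058), Slc38a3 (0.00224), Slc7a7 (0.00426) and Slc7a2 (0.00582). Slc36a1 (0.181) and Slc6a6 (0.052) did not pass that test.

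Fed libraries themselves varied with time of day. The test over the 4 fed groups called 14 of 36 carriers in hepatocyte nuclei, beside 30.1% of all genes. Slc38a3 was at 875 ± 113, 912 ± 158, 2344 ± 563 and 1076 ± 209 CPM at the 4 times (mean ± SD, n = 4, adjusted p = 2.04e-06 from edgeR). Its fasted means, 748 ± 62.4, 559 ± 85.6, 749.6 ± 171 and 649 ± 173 CPM, lacked the high value at 16 h. Fed Slc38a4 was at 550.2 ± 139.7, 478 ± 49.8, 1329 ± 356 and 1118 ± 246 CPM (adjusted p = 0.000125 from edgeR).

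Fed Slc38a2 stood at 59.6 ± 3.94 CPM at 3 h and 154 ± 17.4 CPM at 24 h (adjusted p over the 4 times = 0.00142). Fed Slc6a9 stood at 15.9 ± 2.62 and 48.3 ± 14.5 CPM at those times (adjusted p = 9.55e-05), and its fasted mean at 24 h was 55.3 ± 10.1 CPM (0.19 ± 0.25 from fed, not called, adjusted p = 0.618). Fed Slc1a4 went the other way, 11.1 ± 1.65 CPM at 3 h and 3.00 ± 0.757 CPM at 24 h (adjusted p = 0.0127). In macrophage nuclei 10 of 38 carriers varied in fed libraries, beside 12.8% of all genes. Among them fed Slc7a8 was at 273 ± 49.7, 407 ± 70.8, 404 ± 32.5 and 246 ± 22.2 CPM (adjusted p = 0.00193 from edgeR), highest at 8 and 16 h.

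In macrophage nuclei fasting changed 8 of 38 carriers at 3 h (5 higher, 3 lower), beside 12.4% of all genes tested (7.7% higher, 4.68% lower). At 8 h 12 were called (5 higher, 7 lower), beside 12.8% (7.44% and 5.4%), and at 16 h 6 (3 and 3), beside 13.7% (7.72% and 5.99%). At 24 h 2 were higher and 0 lower, beside 11.7% (5.31% and 6.35%). With 1 library left out, the count at 3 h was 5 without fed replicate 4, that at 8 h 7, 6 and 6 without fed replicate 1, fed replicate 2 or fasted replicate 3, and that at 16 h 3 without fed replicate 1. At 24 h it was 0 without fed replicate 1 and 1 without any other library except fed replicate 3. By edgeR 4 carriers were lower at 24 h at an unadjusted p under 0.05, and DESeq2 called 0 lower. The median log2 fold change over the carriers was -0.12, 0.01, 0.03 and 0.05 at the 4 times, beside -0.05, 0.01, 0.04 and -0.00 for all genes. Fed and fasted libraries did not overlap for 8, 9, 4 and 7 carriers, beside 15.4%, 21.8%, 18.3% and 20% of all genes tested. All carriers called higher at 3 and 8 h were among the 15 that were lower in macrophage-tagged nuclei than in unpurified liver. The share of such genes among all genes called higher was not computed. What part of these calls came from hepatocyte RNA was not tested.

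Of the 7 carriers that fell in macrophage nuclei at 8 h, 6 were enriched there, beside 18 of 36 tested carriers and 37.2% of all genes tested. The share of enriched genes among all genes that fell at 8 h was not computed. Slc7a8 (chr14:54722214-54781886, minus strand) went from 344, 348, 457 and 479 CPM in fed to 165, 227, 238 and 249.7 CPM in fasted libraries, with no overlap (-0.89 ± 0.16, adjusted p = 0.000628). At 3 h it was at 238, 244, 265 and 346 CPM fed and 143, 182, 187 and 244 CPM fasted with overlap (-0.53 ± 0.16, adjusted p = 0.0302). That call was lost in 5 of 8 fits with 1 library left out (fed replicates 2 and 4 or fasted replicates 1, 2 and 4; adjusted p up to 0.131) and in a fit to those 8 libraries alone (adjusted p = 0.206). Slc7a7 went from 172, 178, 211 and 214 to 110.1, 125, 149.7 and 164 CPM at 8 h without overlap (-0.50 ± 0.14, adjusted p = 0.0201). This call was lost in 4 of 8 fits with 1 library left out (fed replicates 1 and 2 or fasted replicates 3 and 4; adjusted p up to 0.113). Both light chains reach the membrane with Slc3a2, which was at 27.7, 33.0, 35.4 and 41.5 CPM fed and 26.1, 30.0, 30.4 and 34.1 CPM fasted and was not called (-0.19 ± 0.15, adjusted p = 0.463).

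The glutamate carrier Slc1a3 (chr15:8634123-8710807, minus strand) went from 48.4, 73.8, 74.8 and 84.5 to 32.2, 39.3, 50.9 and 52.2 CPM at 8 h with overlapping groups (-0.69 ± 0.21, adjusted p = 0.0291). The glutamine carrier Slc38a1 went from 71.9, 82.7, 90.2 and 99.1 to 49.6, 57.4, 67.5 and 75.2 CPM, also with overlap (-0.46 ± 0.15, adjusted p = 0.0397). The Slc1a3 call was lost in 5 of 8 fits with 1 library left out (fed replicates 1, 2 and 4 or fasted replicates 1 and 3; adjusted p up to 0.141). That of Slc38a1 was lost in 5 of 8 fits with 1 library left out (fed replicates 1, 2 and 4 or fasted replicates 3 and 4; adjusted p up to 0.184), without a filter on low counts (0.0553) and in a fit to those 8 libraries alone (0.0654). The cationic carrier Slc7a1 went from 4.33, 4.58, 5.74 and 7.31 to 2.33, 3.40, 3.54 and 3.80 CPM without overlap (-0.75 ± 0.19, adjusted p = 0.00879). Its call was lost in 1 of 8 fits with 1 library left out (fed replicate 2; adjusted p up to 0.0591). At 8 h the summed Kupffer cell and macrophage markers were 8907 to 11650.0 CPM in fed and 6945 to 10969.6 CPM in fasted libraries, overlapping ranges. The summed hepatocyte markers were 5662 to 8343 CPM in fed and 10374 to 12365 CPM in fasted libraries, without overlap. The part of either sum in these falls was not tested.

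The taurine carrier Slc6a6 fell at 3 h from 348, 369, 420.4 and 421 to 163, 296, 317 and 321 CPM (-0.51 ± 0.14, adjusted p = 0.021), with 163 CPM in the library that stood apart. That call was lost in 3 of 8 fits with 1 library left out (fed replicates 3 and 4 or fasted replicate 3; adjusted p up to 0.0785) and in a fit to those 8 libraries alone (adjusted p = 0.279).

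At 24 h the calls were rises of 2 macrophage-enriched carriers. Slc43a2 (chr11:75531693-75577572, plus strand) was at 203, 236, 266 and 284 CPM fed and 349.9, 363, 397 and 416 CPM fasted without overlap (0.63 ± 0.17, adjusted p = 0.0165). The lysosomal arginine sensor Slc38a9 was at 97.1, 99.8, 103 and 106 CPM fed and 126, 126, 129 and 131 CPM fasted, tight and separate groups with a small change (0.33 ± 0.11, adjusted p = 0.0424). The Slc43a2 call was lost in 2 of 8 fits with 1 library left out (fed replicates 1 and 4; adjusted p up to 0.0675). That of Slc38a9 was lost in all 8 such fits (adjusted p up to 0.0949), and with RLE scaling its adjusted p was 0.0521. Slc43a2 was called higher at 24 h in hepatocyte nuclei as well.

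**Figure D4:**
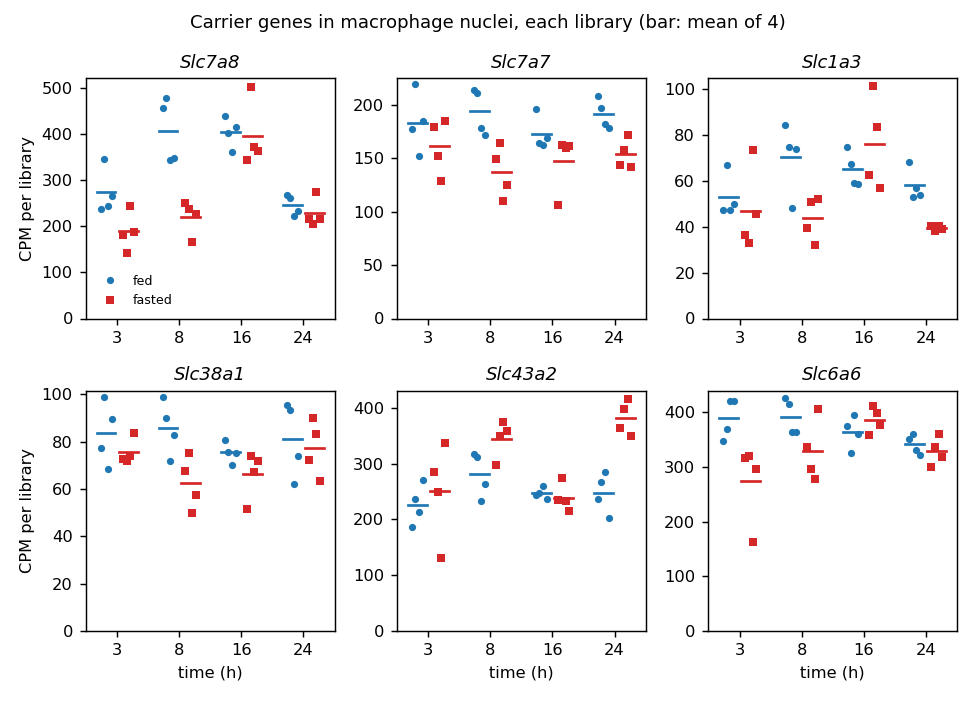
CPM in each macrophage library (y axis, linear, from 0) by time after the start of the fast (x axis) for 6 carriers enriched in macrophage nuclei, with fed libraries as blue circles, fasted libraries as red squares and bars for the mean of 4. Fasted Slc7a8 lies below fed at 8 h (165 to 249.7 against 344 to 479 CPM) and fasted Slc43a2 above fed at 24 h (349.9 to 416 against 203 to 284 CPM).

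Carriers that were depleted from macrophage nuclei together with the hepatocyte markers rose there too. At 3 h Slc7a2 was at 375, 453, 554 and 688 CPM fed and 2354, 2388, 2611 and 4052 CPM fasted (2.46 ± 0.33, adjusted p = 3.24e-05). Slc38a4 was at 176, 243, 262 and 312 CPM fed and 579, 668, 725 and 1054 CPM fasted (1.61 ± 0.27, adjusted p = 0.000353), and Slc1a2 at 122, 122, 131 and 157 and 259, 297, 366 and 387 CPM (1.30 ± 0.17, adjusted p = 2.27e-05). In all 3 genes fed and fasted libraries were apart. Slc3a1 rose from 23.4, 24.6, 30.5 and 39.5 to 46.8, 54.2, 66.6 and 87.2 CPM (1.11 ± 0.35, adjusted p = 0.0392), while Prepl on the other strand was at 0.45 ± 0.15 (adjusted p = 0.0548). The Slc3a1 call was lost in 4 of 8 fits with 1 library left out (fed replicates 2, 3 and 4 or fasted replicate 3; adjusted p up to 0.161). Slc38a2 rose as well (0.84 ± 0.23, adjusted p = 0.0188). The hepatocyte marker sum in these libraries was 7483 to 11757 CPM fed and 11413 to 24296 CPM fasted, and its part in these rises was not tested.

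At 8 h Slc1a2 was at 109.9, 120.2, 128 and 147 CPM fed and 212, 268, 285 and 369.9 CPM fasted without overlap (1.17 ± 0.17, adjusted p = 9.18e-05), while the marker sum was also apart (5662 to 8343 against 10374 to 12365 CPM). Slc7a2 was at 590.4, 593, 751 and 1013 CPM fed and 830.0, 2221, 2559 and 2565 CPM fasted, with 1 fasted library within the fed range (1.47 ± 0.32, adjusted p = 0.00334). Slc6a9 was at 4.61, 6.42, 10.6 and 13.9 CPM fed and 10.8, 11.8, 31.0 and 69.5 CPM fasted with overlap (1.80 ± 0.46, adjusted p = 0.0101). Its call was lost in 1 of 8 fits with 1 library left out (fasted replicate 3; adjusted p up to 0.151) and in a fit to those 8 libraries alone (adjusted p = 0.0802). Slc38a4 (0.82 ± 0.27) and Slc38a2 (0.71 ± 0.23) were called with adjusted p of 0.0422 and 0.0444. The first was lost in 6 of 8 fits with 1 library left out (fed replicates 1, 2 and 3 or fasted replicates 1, 2 and 3; adjusted p up to 0.139). The other was lost in 6 of 8 fits with 1 library left out (fed replicates 1, 2 and 3 or fasted replicates 2, 3 and 4; adjusted p up to 0.153) and without a filter (adjusted p = 0.0578). Slc1a4 fell from 2.42, 2.77, 3.38 and 4.63 to 1.03, 1.25, 1.71 and 2.02 CPM (-1.14 ± 0.27, adjusted p = 0.00531).

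At 16 h Slc1a4 was at 3.97, 4.68, 5.17 and 6.81 CPM fed and 1.30, 1.55, 2.19 and 2.21 CPM fasted in macrophage nuclei (-1.50 ± 0.26, adjusted p = 0.00034), with no overlap. Slc38a3 was at 709, 728, 756 and 1435 CPM fed and 333, 376, 384 and 438 CPM fasted (-1.24 ± 0.29, adjusted p = 0.00587), and as in hepatocyte nuclei the fed libraries of this time were high. The 3 calls upward had overlapping groups. Slc6a8 was at 0.260, 0.619, 0.640 and 1.09 CPM fed and 0.913, 1.36, 2.74 and 4.10 CPM fasted (1.88 ± 0.41, adjusted p = 0.00296), and the proton-coupled carrier Slc36a4 at 18.2, 19.8, 24.2 and 24.8 and 20.6, 25.02, 43.7 and 45.4 CPM (0.63 ± 0.21, adjusted p = 0.0412). Slc6a4, with both group means under 1 CPM, had 1.99 ± 0.60 (adjusted p = 0.0273). The Slc6a4 call was lost in 4 of 8 fits with 1 library left out (fed replicates 1, 3 and 4 or fasted replicate 1; adjusted p up to 0.46). That of Slc36a4 was lost in 6 of 8 fits with 1 library left out (fed replicates 1, 2, 3 and 4 or fasted replicates 1 and 2; adjusted p up to 0.189), with RLE scaling (0.0503) and without a filter (0.0527). A fit to those 8 libraries alone gave adjusted p of 0.167 for Slc36a4 and 0.0659 for Slc6a8. Hepatocyte marker sums at 16 h were 6104 to 8447 CPM fed and 7853 to 11196 CPM fasted. Only 4 carriers, Slc1a2, Slc6a4, Slc7a1 and Slc7a2, differed between times in macrophage nuclei by edgeR, beside 4.65% of all genes.

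The difference between the fasting effects of hepatocyte and macrophage nuclei was called for 6 of 39 carriers at 3 h, beside 10.6% of all genes tested (6.2% higher and 4.4% lower in hepatocyte nuclei). At 8 h 3 were called, beside 7.62% (3.86% and 3.76%). At 16 h 0 were called by edgeR, beside 0.535%, with 2 at an unadjusted p under 0.05 and 1 by DESeq2, and at 24 h 1, beside 4.05% (2.1% higher). Without macrophage fed replicate 3 the count at 3 h was 3. At 16 h it was 1 without macrophage fasted replicate 3, hepatocyte fed replicate 3, or hepatocyte fasted replicate 1 or 2, and at 24 h 0 without hepatocyte fed replicate 2 and 2 without macrophage fed replicate 3 or hepatocyte fed replicate 4. The difference is the log2 fold change in hepatocyte minus that in macrophage nuclei. At 3 h Slc1a4 fell in hepatocyte nuclei and had -0.34 ± 0.25 in macrophage nuclei, a difference of -2.08 ± 0.56 (adjusted p = 0.0108). Slc38a6 had -0.02 ± 0.13 in macrophage nuclei, a difference of -1.05 ± 0.20 (adjusted p = 0.000408), and Slc6a6 fell in both, with a difference of -0.88 ± 0.30 (adjusted p = 0.0451). The effect was higher in hepatocyte nuclei for Slc6a9 (1.80 ± 0.52, adjusted p = 0.018), Slc38a2 (1.15 ± 0.38, adjusted p = 0.0399) and Slc7a6os (0.61 ± 0.17, adjusted p = 0.0155). Slc7a2 rose in both cell types at 3 h, and its difference, 0.62 ± 0.61, did not pass (adjusted p = 0.558), which does not show that the rises were equal.

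At 8 h Slc36a1 fell in hepatocyte nuclei and had 0.02 ± 0.18 in macrophage nuclei, a difference of -1.45 ± 0.29 (adjusted p = 0.00084). Slc7a8 (1.35 ± 0.30, adjusted p = 0.00291) and Slc1a3 (1.61 ± 0.47, adjusted p = 0.0248) fell in macrophage nuclei and had 0.38 ± 0.27 and 0.83 ± 0.48 in hepatocyte nuclei, where both are low. At 24 h Slc7a7 rose in hepatocyte nuclei and had -0.32 ± 0.14 in macrophage nuclei, a difference of 1.03 ± 0.26 (adjusted p = 0.0173). With 1 library left out, Slc1a4, Slc38a6, Slc36a1 and Slc7a8 were called in all 16 fits each. The Slc6a9 difference was lost in 1 of 16 fits with 1 library left out (macrophage fed replicate 3; adjusted p up to 0.0811). Slc7a6os was lost in 1 of 16 fits with 1 library left out (macrophage fasted replicate 3; adjusted p up to 0.0558), and Slc7a7 in 1 of 16 fits with 1 library left out (hepatocyte fed replicate 2; adjusted p up to 0.0606). Slc1a3 was lost in 5 of 16 fits with 1 library left out (macrophage fed replicate 1 or hepatocyte fed replicates 1, 2 and 4 or hepatocyte fasted replicate 1; adjusted p up to 0.0782). Slc38a2 was lost in 10 of 16 fits with 1 library left out (macrophage fed replicates 1, 3 and 4 or macrophage fasted replicate 3 or hepatocyte fed replicates 1, 2, 3 and 4 or hepatocyte fasted replicates 1 and 3; adjusted p up to 0.104). Slc6a6 was lost in 12 of 16 fits with 1 library left out (macrophage fed replicates 1, 2, 3 and 4 or macrophage fasted replicates 1, 2 and 4 or hepatocyte fed replicates 1, 3 and 4 or hepatocyte fasted replicates 1 and 3; adjusted p up to 0.123). The difference of Slc38a2 had an adjusted p of 0.0515 with RLE scaling and 0.0557 without a filter on low counts, and that of Slc6a6 0.0537 without a filter. The hepatocyte marker sums of fed and fasted macrophage-tagged libraries are given above for 3 and 8 h. At 24 h they were 7012 to 13241 CPM fed and 10966 to 15968 CPM fasted, overlapping ranges, and their part in these differences was not tested.

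**Figure D5:**
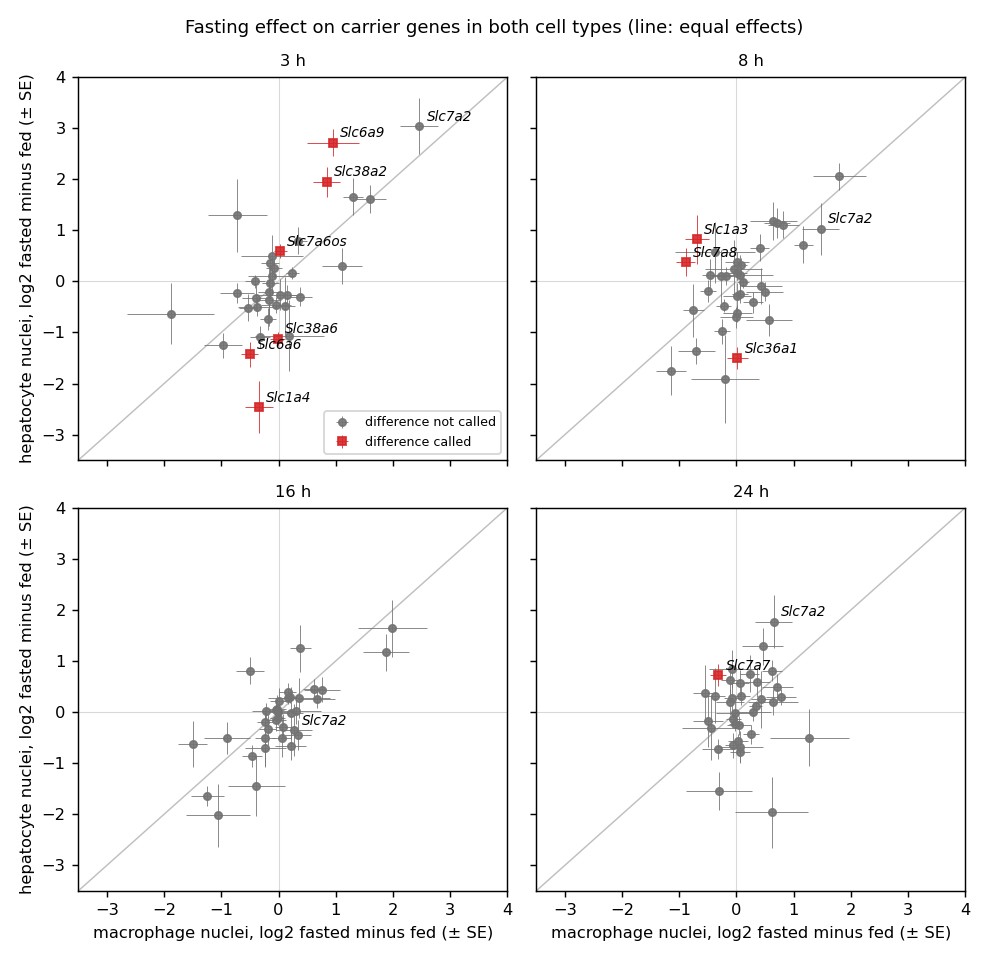
Fasting effect (log2 fold change, points with bars of ± SE) of each carrier in macrophage nuclei (x axis) and hepatocyte nuclei (y axis) at 3, 8, 16 and 24 h, with a diagonal line of equal effects. Red squares are carriers whose difference was called, 6 at 3 h, 3 at 8 h, 0 at 16 h and 1 at 24 h, and Slc7a2 lies at the upper right near the line at 3 h.

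In unpurified liver the mean fasting effect over the 4 times was called for 17 of 33 carriers (8 higher, 9 lower), beside 36.4% of all genes tested (17.1% higher, 19.3% lower). Slc7a2 lay at 776 to 4035 CPM in the 8 fed pools and 1450.1 to 6047 CPM in the 8 fasted pools (0.99 ± 0.18, adjusted p = 0.00161). Slc1a4 lay at 3.22 to 12.6 CPM in the 8 fed pools and 1.33 to 5.09 CPM in the 8 fasted pools (-1.54 ± 0.20, adjusted p = 0.000161). The ranges, each over 4 times, overlapped in both genes. Slc6a8 (0.86 ± 0.15), Slc6a9 (0.84 ± 0.19), Slc38a2 (0.62 ± 0.10), Slc38a4 (0.57 ± 0.13) and Slc1a2 (0.55 ± 0.08) were also higher, and Slc36a1 (-0.73 ± 0.11), Slc38a3 (-0.64 ± 0.11) and Slc6a6 (-0.60 ± 0.08) lower. Of the macrophage-enriched genes, Slc7a8 (-0.41 ± 0.09, adjusted p = 0.00366) and Slc7a7 (-0.30 ± 0.06, adjusted p = 0.00292) were lower.

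The authors' deposited table for hepatocyte nuclei lists 17 of the 63 genes, with 6 higher and 2 lower at 3 h, 7 and 4 at 8 h, 2 and 1 at 16 h, and 3 and 2 at 24 h at an adjusted p under 0.05. The authors' deposited table for macrophage nuclei lists 15, with 0 higher and 2 lower at 3 h, 0 and 5 at 8 h, 0 and 1 at 16 h, and 1 and 0 at 24 h. Both tables hold selected genes only. The macrophage table lists none of the carriers that edgeR called higher in macrophage nuclei at 3, 8 or 16 h, among them Slc7a2 and Slc38a4. The share of all listed genes called was not computed for either table. For Slc7a2 in hepatocyte nuclei at 8 h, not called by edgeR, the authors' deposited table gives a log2 fold change of 1.08 with an adjusted p of 0.0364.

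Genes around the carriers were read from lists of the amino acid response, amino acid breakdown, amino acid sensing and other amino acid carriers. Of the 32 measured genes of the amino acid response through ATF4, 13 were higher and 5 lower in hepatocyte nuclei at 3 h, beside 19.5% and 20.4% of all genes, with a median log2 fold change of 0.43 beside -0.03 for all genes. The largest were the glutathione-degrading Chac1 (5.56 ± 0.73), the mTORC1 inhibitor Ddit4 (3.03 ± 0.82), Herpud1 of endoplasmic reticulum protein quality control (2.59 ± 0.39) and the hormone gene Fgf21 (2.35 ± 0.50), with adjusted p of at most 0.00441. Atf4 itself was lower (-0.56 ± 0.21, adjusted p = 0.0327). Counts were 12 and 4 at 8 h (beside 18% and 20.7%), 5 and 2 at 16 h (9.55% and 8.55%), and 6 and 2 at 24 h (11.6% and 12.4%).

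Amino acid catabolism and the urea cycle had 22 of 51 genes higher and 2 lower at 3 h in hepatocyte nuclei (median 0.36), beside 19.5% and 20.4% of all genes. The aspartate aminotransferase Got1 (2.93 ± 0.62), the serine dehydratase genes Sdsl (2.51 ± 0.45) and Sds (2.30 ± 0.48), and Aass of lysine breakdown (2.05 ± 0.56) changed most. At 8, 16 and 24 h 13, 7 and 13 were higher, beside 18%, 9.55% and 11.6%, and 9, 3 and 2 lower, beside 20.7%, 8.55% and 12.4%. In macrophage nuclei 16, 11, 4 and 13 of the 51 were higher at the 4 times, beside 7.7%, 7.44%, 7.72% and 5.31% of all genes, and 1, 0, 0 and 0 lower. The count at 16 h is near that background. Hepatocyte marker sums of fed and fasted macrophage-tagged libraries did not overlap at 8 h and overlapped at 3, 16 and 24 h, and their part in these counts was not tested.

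Amino acid sensing by mTORC1 had 11 of 37 genes higher and 7 lower in hepatocyte nuclei at 3 h (median 0.20), beside 19.5% and 20.4% of all genes, so that the count of falls is near the background. Flcn (2.01 ± 0.22) and Fnip1 (1.37 ± 0.19), partners in the folliculin complex at the lysosome, and the leucine sensor Sesn2 (1.93 ± 0.28) were higher, and Gatsl2, a relative of the arginine sensor gene, was lower (-1.50 ± 0.30). In macrophage nuclei 1 was higher and 1 lower at 3 h, beside 7.7% and 4.68%. Of 19 other amino acid and peptide carriers, 10 were higher and 2 lower in hepatocyte nuclei at 3 h (median 0.73), beside the same shares of all genes. The vesicular glutamate carrier Slc17a8 (1.54 ± 0.44) and the lysosomal cystine exporter Ctns (0.93 ± 0.12) were higher, and Mfsd12 was lower (-1.51 ± 0.31). The list also holds Slc18a1 (1.70 ± 0.20), which is a vesicular carrier of monoamines and not of amino acids.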

How the data were processed

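Total nuclear RNA from tagged nuclei or from unpurified liver nuclei was sequenced in 80 libraries with a stranded kit, without poly(A) selection, as paired reads of 50 bases, per the labels' protocols. The deposited counts per gene come from STAR 2.4.2a and DESeq2 1.24.0 on mm10, named without a role in the submitters' processing notes, and the counting tool and strand setting are not given in the sources used. Where counting ignored strand, genes that overlap on opposite strands share reads. The authors' deposited tables of selected genes hold per-library signal (counts divided by a size factor), log2 fold changes and adjusted p-values, and were used only where named.

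Counts were normalised by TMM and filtered with filterByExpr (minimum count 10, minimum total 15), and tested with edgeR 4.0.16 (robust quasi-likelihood F-test, limma 3.58.1, R 4.3.3). Each fasting comparison used the 32 tagged libraries of its cell type, the difference between cell types all 64, and the purification comparison the 40 libraries of a line. Benjamini-Hochberg adjustment ran over all genes tested, with a threshold of 0.05. Levels are CPM on the TMM scale of the same fit, and per-kb levels use all 80 libraries. Errors beside log2 values are standard errors, the absolute log2 value divided by the square root of F. Depth was 12597786 to 44694933 counts per library, and genes under 1 CPM rest on few reads. The models were run on counts simulated from mean levels and dispersions of these data, with 200 genes per cell type changed at 3 h. That run did not vary the hepatocyte RNA in macrophage-tagged libraries and so says nothing of its part.

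Values for every library are given for called carriers with a mean of at least 1 CPM in a compared group, the 3 highest and 3 lowest per cell type and time and the heavy chains with their light chains, and for other carriers where a comparison turns on them. Up to 4 genes per pathway list are the called ones with the largest change at the time with most calls. The carriers and the lists were chosen with earlier results of these data known. Alternatives were RLE scaling, no filter, DESeq2 1.42.0, fits to the 8 libraries compared, and each library left out. Counts of carriers include 1 gene whose own values are not reported here. Gene positions match GENCODE vM21 for 63 of 63 genes.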

Additional observations from a re-analysis of the deposited data

Results flagged for a closer look

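Of 90 groups of 4 libraries examined, 3 held a library far from the other 3, where chance gives about 1 in 20. Slc7a2 in fasted macrophage nuclei at 3 h was at 4052 CPM in replicate 3, beside 2354, 2388 and 2611 CPM. The same library had the lowest Slc6a6, 163 CPM beside 296, 317 and 321 CPM. It is the one with the highest hepatocyte marker sum of the macrophage-tagged libraries, 24296 CPM. Slc38a3 in fed macrophage nuclei at 16 h was at 1435 CPM in replicate 3, beside 709, 728 and 756 CPM.

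The fasting effect differed between hepatocyte and macrophage nuclei, by the edgeR test of the difference itself, in 10 cases. At 3 h these were Slc1a4 (-2.08), Slc38a2 (1.15), Slc38a6 (-1.05), Slc6a6 (-0.88), Slc6a9 (1.80) and Slc7a6os (0.61), given as the log2 fold change in hepatocyte minus that in macrophage nuclei. At 8 h they were Slc1a3 (1.61), Slc36a1 (-1.45) and Slc7a8 (1.35), and at 24 h Slc7a7 (1.03).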

How the results depend on the processing

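No paired analysis was possible because the labels give no replicate numbers and nothing in them ties a fed to a fasted library. The replicate numbers used here are not from the labels and follow the order in which the samples of a group are listed. For carriers called above, 1229 values were recomputed over the alternatives. Of these values, 1069 stayed called, 160 were no longer called and 0 changed sign. Carriers not called above were left out, so a gain of a call could not appear among them. Of the 160, 131 came from leaving out 1 library, 12 from fitting only the 8 libraries compared, 9 from no filter on low counts and 4 each from RLE scaling and DESeq2. RLE scaling moved the median of all genes by at most 0.05 on the log2 scale.

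Fits to only the 8 libraries compared called 1 carrier and 885 genes in hepatocyte nuclei at 16 h, in place of 6 and 2343. In macrophage nuclei they called 5 and 247 at 3 h in place of 8 and 1716, 3 and 989 at 16 h in place of 6 and 1901, and 5 carriers at 24 h in place of 2. For the cell type difference at 16 h, DESeq2 called 1 carrier and 149 genes, and no filter gave 48 genes, in place of 0 and 75. Fits with fewer libraries have fewer degrees of freedom, and the cause was not tested.

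With 1 library left out, hepatocyte calls at 16 h ranged from 3 to 8 carriers and 1485 to 2540.0 genes. Macrophage calls ranged from 5 to 10 carriers and 702 to 2720.0 genes at 3 h, 6 to 10 and 702 to 1741 at 8 h, 3 to 7 and 922 to 2270.0 at 16 h, and 0 to 2 carriers at 24 h. The cell type difference ranged from 3 to 7 carriers and 989 to 1704 genes at 3 h, 696 to 1162 genes at 8 h, 0 to 1 carriers and 24 to 130 genes at 16 h, and 0 to 2 and 246 to 900 at 24 h.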
